A study of Homo sapiens with 12 samples.

Results

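The genes that make cholesterol and fatty acids were followed through p53 knockout and p53 knockdown in the established human line LMSU, which its labels describe as gastric cancer cells bearing the R175H variant of p53. The members were 31 listed symbols, looked up by name among the 25435 gene symbols of the deposited count table. All 31 were found, and all 31 passed the low-count filter that left 13365 genes for testing. They fall into 21 sterol genes (18 enzymes with INSIG1, SREBF2 and STARD4) and 10 fatty acid genes (9 enzymes with SREBF1).

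RNA was sequenced in 12 libraries, 2 for each of 6 groups. In the knockout arm, labelled without doxycycline, cells with the GFP-marked control construct V2 were compared with cells carrying the GFP-marked knockout construct sg-1, and the labels list the variant as present in the former and absent in the latter. In the knockdown arm, labelled with doxycycline in all 4 groups, the cells carried shRNA 1 or shRNA 2 against p53, a scramble hairpin, or vector, and the labels list the variant as absent with either hairpin and present with scramble and vector. Doxycycline therefore separates the arms as well as the constructs, and levels in 1 arm cannot be set against the other without it. The labels do not tell if the sg-1 cells are a pool or 1 clone, or if both libraries of each group are separate cultures; p-values then measure the spread between libraries, which may be technical.

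Cholesterol is built from acetyl-CoA through mevalonate and the isoprenoids to squalene, which is oxidised and closed into a ring that a further series of enzymes trims to cholesterol. Fatty acids are built from the same acetyl-CoA by carboxylation and chain assembly, and are then desaturated and elongated. Both routes are driven by the SREBP transcription factors, of which SREBP-2 (gene SREBF2) is best known for the sterol genes and SREBP-1 (SREBF1) for the fatty acid genes; INSIG1 retains their escort protein in the endoplasmic reticulum when sterols are plentiful. As background to the comparison of p53 states, mutant p53 proteins have been described at the promoters of mevalonate pathway genes together with SREBP proteins in breast cancer cells.

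The promoters of 5 members are shown. CYP51A1, DHCR7, SCD and ELOVL4 were chosen because the mean of both p53 hairpins was called lower than scramble below. SREBF2 was chosen because its promoter is the member window with a match to the core of a sterol regulatory element. Each promoter is the RefSeq window of GRCh38.p14 from 250 bases before to 50 bases after the annotated start. It is written on the strand of the gene. DHCR7 has 2 windows, and the one printed is listed first. Capitals mark CCAAT, the box read by the factor NF-Y, in either orientation (ATTGG on the printed strand), and in SREBF2 also the sterol regulatory element core TCACNCCAC.
CYP51A1 (chr7:92134428-92134727, minus strand): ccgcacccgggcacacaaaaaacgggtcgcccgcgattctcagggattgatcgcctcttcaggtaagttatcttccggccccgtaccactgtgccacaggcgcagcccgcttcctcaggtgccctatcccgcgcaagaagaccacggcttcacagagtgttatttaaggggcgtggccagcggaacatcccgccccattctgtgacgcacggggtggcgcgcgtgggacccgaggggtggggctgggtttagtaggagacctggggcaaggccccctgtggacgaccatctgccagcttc
DHCR7 (chr11:71448344-71448643, minus strand): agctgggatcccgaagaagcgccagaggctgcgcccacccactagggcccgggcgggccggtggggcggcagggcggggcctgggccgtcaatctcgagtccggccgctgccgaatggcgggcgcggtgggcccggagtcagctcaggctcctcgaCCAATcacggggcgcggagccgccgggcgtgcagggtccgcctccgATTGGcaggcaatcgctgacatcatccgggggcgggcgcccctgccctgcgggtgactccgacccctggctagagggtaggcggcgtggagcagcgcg
SCD (chr10:100346983-100347282, plus strand): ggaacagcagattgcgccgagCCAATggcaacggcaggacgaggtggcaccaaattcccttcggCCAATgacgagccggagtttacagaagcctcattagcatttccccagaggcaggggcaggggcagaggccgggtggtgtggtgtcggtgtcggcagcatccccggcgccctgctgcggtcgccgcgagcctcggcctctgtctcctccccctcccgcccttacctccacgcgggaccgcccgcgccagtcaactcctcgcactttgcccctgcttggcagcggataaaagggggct
ELOVL4 (chr6:79947504-79947803, minus strand): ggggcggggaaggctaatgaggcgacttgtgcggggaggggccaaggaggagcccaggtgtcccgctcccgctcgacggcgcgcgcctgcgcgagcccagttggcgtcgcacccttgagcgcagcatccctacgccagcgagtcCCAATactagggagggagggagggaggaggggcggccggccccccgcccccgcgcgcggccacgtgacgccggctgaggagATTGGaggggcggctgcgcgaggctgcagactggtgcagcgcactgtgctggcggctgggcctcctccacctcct
SREBF2 (chr22:41832855-41833154, plus strand): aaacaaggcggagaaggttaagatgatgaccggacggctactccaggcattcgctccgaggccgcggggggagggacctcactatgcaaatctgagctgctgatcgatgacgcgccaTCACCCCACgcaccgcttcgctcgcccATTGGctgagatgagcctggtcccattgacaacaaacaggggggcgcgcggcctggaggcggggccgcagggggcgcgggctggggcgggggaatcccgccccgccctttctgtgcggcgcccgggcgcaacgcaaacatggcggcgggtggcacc

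The 36 windows searched came from 27 members, with none for ACAT2, FDFT1, SQLE and FASN. SQLE, also called lower below, is for that reason not among the promoters printed. Motifs were searched on both strands and counted separately, so that matches may overlap. CCAAT stood in 26 of the 36 member windows (72.2%) against 34.6% of all 35116 windows of the same length. The share was 18 of 23 windows for the sterol genes and 8 of 13 for the fatty acid genes. GGGCGG, the box read by Sp1, stood in 31 of the 36 windows against 45% of all windows, and the E-box CACGTG in 6 of the 36 (16.7%) against 7.26%. TCACNCCAC was found in 1 member window, that of SREBF2 printed above, against 1.13% of all windows. These matches describe letters in a short window and no binding was measured.

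Library totals ran from 9738094 to 16823246 counts. The libraries of the knockout arm varied more between replicates than those of the knockdown arm: the common biological coefficient of variation was 15.9% over the 4 knockout-arm libraries and 3.08% over the 8 knockdown-arm libraries, and 9.55% in the joint fit of all 12 that gives the tests below. The knockout control libraries differed most from each other, with a chi-square of 34.4 per degree of freedom over genes, against 1.56 to 9.999 in the other groups. Of the epithelial markers, 5 of 11 were above the filter: KRT8, KRT18, MUC1 at 2.85 to 7.05 CPM (counts scaled to a common library size), KRT7 at 0.830 to 7.23 and CLDN4 at 0.445 to 1.71, while EPCAM, CDH1, KRT19, CLDN3 and ESRP1 were at or near 0. Of 11 gastric markers, GATA6 alone was above the filter, and TFF1, TFF2 and GKN2 were at 0 in every library. All 11 fibroblast markers, which mesenchymal tumour cells can also express, were above it, with a summed level of 10472 to 37878 CPM. Of 5 immune markers CD68 alone was above the filter. Adipocyte and hepatocyte markers, listed because those cells make much lipid, were above it in 2 of 8 cases.

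All levels are CPM scaled by trimmed mean of M values (TMM), and comparisons between genes use these levels per kilobase of merged exon, since long transcripts collect more reads. Per kilobase, SQLE (squalene epoxidase, the first oxygenation of the sterol route) was the highest member in scramble at 90.7 CPM per kb. It was followed there by ELOVL5 at 59.9, MSMO1 at 51.3, ACLY at 50.3 and FASN at 44.8. The lowest was EBP, a sterol isomerase, at 0.504 CPM per kb in scramble and with 2 to 17 counts in a library, so that its fold changes are not precise. HSD17B7 at 1.56 and STARD4 at 2.66 CPM per kb came next.

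The levels of the 21 sterol genes and of the 10 fatty acid genes were summed to compare groups. The sums are CPM without scaling by exon length, so the size of the sterol sum cannot be set against that of the fatty acid sum. The sterol sum was 1325 ± 16 CPM under scramble, 1176 ± 5.4 under shRNA 1, 1094 ± 6.2 under shRNA 2, 1128 ± 8.4 under vector, and in the knockout arm 1335 ± 63 for the control and 1349 ± 38 for sg-1 (SD, n = 2 throughout). The fatty acid sum was 1218 ± 6.8 CPM under scramble, 1161 ± 22 under shRNA 1, 949.1 ± 10.1 under shRNA 2, 1145 ± 14 under vector, and in the knockout arm 1232 ± 35 for the control and 1251 ± 37 for sg-1. The sterol sum of shRNA 2 was therefore below every other group, and the fatty acid sum of shRNA 2 lay further below the rest than its sterol sum did. The ratio of the sterol to the fatty acid sum, also without scaling by length, ran from 0.985 ± 0.019 in vector to 1.15 ± 0.01 with shRNA 2. In bulk libraries, fewer cells that express a gene and less RNA per cell cannot be told apart.

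Knockout of p53 against its own control asks what loss of the mutant protein does in cells without doxycycline. None of the 31 members was called at an adjusted p below 0.05 (edgeR quasi-likelihood test, Benjamini-Hochberg over 13365 genes), where 0.0150% of all genes, 2 of 13365, were called (0.00748% higher, 0.00748% lower). DESeq2 also called 0 members, and 23 genes in all. At an unadjusted p below 0.05 stood 2 members, MSMO1 and ELOVL5, and 859 genes. The smallest adjusted p among the members was 0.507, for MSMO1 (a sterol C4-methyl oxidase), at a log2 fold change of 0.39 (SE 0.11). MSMO1 read 70.8 and 89.1 CPM in the control libraries and 107 and 102 in the knockout. ELOVL5 (an elongase of polyunsaturated fatty acids) read 153 and 188 CPM in the controls and 208 and 199 in the knockout. For both genes the knockout libraries lay above the controls without overlap, as they did for SC5D, INSIG1 and ELOVL6, 5 of 31 members where 12.02% of all genes did so. The median log2 fold change was -0.07 over the sterol genes and 0.05 over the fatty acid genes, against -0.01 over all genes. The sterol median minus the fatty acid median, -0.12, turned to 0.072 without knockout control replicate 1.

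SQLE read 228 and 256 CPM in the knockout controls and 254 and 256 in the knockout, and its log2 fold change was 0.08 (SE 0.08). SCD (stearoyl-CoA desaturase, which makes monounsaturated fatty acids) read 95.0 and 111 CPM in the controls and 105 and 99.6 in the knockout, at a log2 fold change of 0.00 (SE 0.09). FASN (fatty acid synthase) read 421 and 394 CPM in the controls and 383 and 379 in the knockout, at -0.10 (SE 0.08). The control and knockout libraries of SQLE and SCD overlapped, and those of FASN did not, the 1 member lower without overlap where 11.2% of all genes were. Of the remaining members called in the mean knockdown below, other than MSMO1, the libraries of INSIG1 separated and those of the rest overlapped. CYP51A1 read 65.2 and 79.1 CPM in the controls and 76.6 and 75.9 in the knockout. DHCR7 read 64.4 and 54.7, then 53.6 and 57.8, and ELOVL4 5.01 and 3.92, then 5.64 and 4.33. INSIG1 (which holds back the SREBP escort) read 105 and 121 CPM in the controls and 128 and 127 in the knockout, above both controls. IDI1 read 57.0 and 64.9, then 63.7 and 68.2, PMVK 22.6 and 14.7, then 13.1 and 15.8, and FADS2 23.4 and 24.0, then 22.3 and 24.6. Outside EBP, the fold changes of the members lay between the -0.38 of PMVK (phosphomevalonate kinase, SE 0.20) and the 0.39 of MSMO1.

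The 2 knockout controls differed from each other in the members, and the calls moved with them. In the controls, 13 of the 21 sterol genes and 3 of the 10 fatty acid genes were higher in control replicate 1 than in replicate 2. The share of all genes was not computed, so these counts are a description. Ratios over the sterol genes ran from 0.621 to 2.32, the highest being that of EBP at 17 and 6 counts. Without control replicate 2, 12 members were called, 6 higher and 6 lower, among 4135 genes in all (30.3% of those tested). MSMO1, STARD4 (a carrier of cholesterol between membranes), SC5D, HMGCS1, ELOVL5 and INSIG1 were then the higher ones, and PMVK, MVD, FDFT1, FDPS, LSS and SREBF2 the lower ones. Without control replicate 1, 0 members and 17 genes were called.

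**Figure D1:**
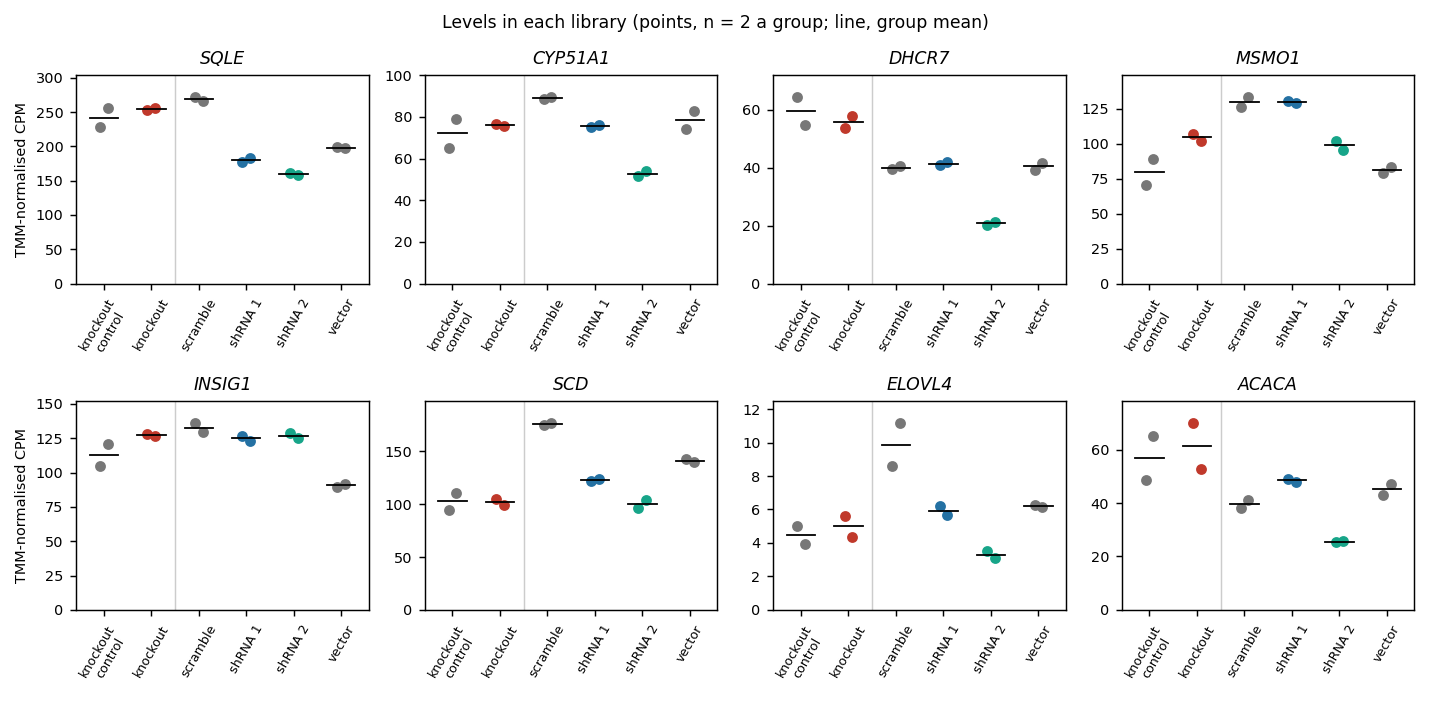
TMM-normalised CPM of 8 members in each library. Points are libraries (2 per group), lines are group means, every vertical axis starts at 0, and the grey line separates the knockout arm from the knockdown arm. SQLE, SCD and ELOVL4 sit below scramble with both hairpins, DHCR7 and ACACA sit below both controls with shRNA 2, and INSIG1 is lower in vector than in the other knockdown-arm groups.

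Knockdown was compared first as the mean of both hairpins against scramble. This mean was called lower in 5 members and higher in none: SQLE, CYP51A1 and DHCR7 of the sterol genes, and SCD and ELOVL4 of the fatty acid genes. That is 3 of 21 and 2 of 10, where 6.77% of all genes were called (3.66% lower, 3.11% higher). DHCR7 was low with shRNA 2 alone, as its values below show. The median log2 fold change was -0.08 over the sterol genes and -0.16 over the fatty acid genes, against 0.00 over all genes. Below 0 were 24 of the 31 members and 6808 of all 13365 genes. The sum of the adipocyte and hepatocyte markers came nearly all from 1 gene, so it does not stand for the marker list. PLIN1 was at most 1.08 CPM, ALB at most 0.151 and ADIPOQ at most 0.090, with LEP and TTR at 0 in every library. The sum was 129 CPM in scramble, 66.1 with shRNA 1, 62.9 with shRNA 2 and 56.8 in vector. In the knockout arm it was 157 in the control and 141 in the knockout. The part of these markers in the members' values was not tested.

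SQLE, which converts squalene to its epoxide and is a rate-limiting step of the sterol route, read 272 and 267 CPM under scramble, 177 and 183 under shRNA 1, 161 and 158 under shRNA 2, and 199 and 197 under vector. All hairpin libraries lay below all libraries of both controls, and vector lay between scramble and the hairpins. The log2 fold change against scramble was -0.67 (SE 0.07, adjusted p = 2.9e-04). CYP51A1, the lanosterol demethylase, read 88.4 and 89.6 CPM under scramble, 75.3 and 76.4 under shRNA 1, 51.5 and 54.0 under shRNA 2, and 74.4 and 82.9 under vector. Both hairpins lay below scramble, while shRNA 1 overlapped vector. Its log2 fold change was -0.49 (SE 0.09, adjusted p = 0.0071). DHCR7, the last reductase on the way to cholesterol, read 39.5 and 40.5 CPM under scramble, 40.8 and 41.9 under shRNA 1, 20.4 and 21.4 under shRNA 2, and 39.4 and 41.7 under vector. Only shRNA 2 was low, and the mean of both hairpins was -0.45 on the log2 scale (SE 0.09, adjusted p = 0.012).

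Among the fatty acid genes, SCD read 175 and 177 CPM under scramble, 122 and 124 under shRNA 1, 96.4 and 104 under shRNA 2, and 143 and 139.8 under vector. The order of the groups was that of SQLE, with no overlap between hairpins and controls. The log2 fold change of SCD was -0.66 (SE 0.08, adjusted p = 6.2e-04). ELOVL4, which extends very long chain fatty acids, was a low transcript at 8.57 and 11.2 CPM under scramble, 6.20 and 5.68 under shRNA 1, 3.52 and 3.08 under shRNA 2, and 6.26 and 6.12 under vector. It was highest in scramble and lowest with shRNA 2, and shRNA 1 overlapped vector. Its log2 fold change of -1.16 (SE 0.17, adjusted p = 0.0022) was the largest of the members.

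The other members did not pass the test against scramble. Values nearest to it were those of HMGCS1, the enzyme that makes the precursor of mevalonate, at -0.47 (SE 0.14, adjusted p = 0.065) and FASN at -0.22 (SE 0.07, adjusted p = 0.075). STARD4 at 0.30 (SE 0.17) and SREBF1 at 0.25 (SE 0.14) had the highest fold changes, with PMVK at 0.25 (SE 0.21). Of the 7 genes of the mevalonate and isoprenoid steps, with ACAT2, none was called, of the 11 later sterol genes 3, and of the 4 regulators and carriers none. Of the fatty acid genes, 0 of 3 chain-building enzymes, 1 of 3 desaturases and 1 of 3 elongases were called. With 6.77% of all genes called, sets this small can hold none without differing from other genes, so these counts are a description.

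These calls depended on the libraries that enter the fit. CYP51A1 and DHCR7 lost the call without either scramble library, with adjusted p-values of 0.085 and 0.11 for CYP51A1 and 0.11 and 0.15 for DHCR7, and ELOVL4 lost it without scramble replicate 2 (adjusted p = 0.065). DHCR7 also lost it without shRNA 1 replicate 1 (0.050) or shRNA 2 replicate 1 (0.058), while SQLE and SCD were called in all 20 alternatives tried. Fitted on the 8 knockdown-arm libraries alone, where the spread was smaller, the comparison called 15 members, 12 lower and 3 higher, among 3872 genes (29.8%). The 5 above were among them, joined by HMGCS1, IDI1, FDFT1, MSMO1, ACLY, FASN and ELOVL5 as lower and by MVK, STARD4 and SREBF1 as higher.

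Against vector, the other control, the same hairpin libraries gave another picture for part of the sterol genes. Of the 31 members 9 were called, 3 higher and 6 lower, where 18.4% of all genes were called (8.04% higher, 10.4% lower). The lower ones held SQLE at -0.22 (SE 0.07), CYP51A1 at -0.32 (SE 0.09), DHCR7 at -0.46 (SE 0.09) and SCD at -0.35 (SE 0.08), 4 of the 5 genes called lower against scramble. ELOVL4 at -0.48 (SE 0.17, adjusted p = 0.079) was the exception. The comparisons share the 4 hairpin libraries, so they are not independent of each other. SQLE lost its call against vector in 13 of 18 alternatives, CYP51A1 in 6 and SCD in 2.

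The members higher than in vector were genes whose level in vector was low. MSMO1 read 79.0 and 83.5 CPM in vector, 127 and 133 under scramble, 131 and 129 under shRNA 1, and 102 and 95.8 under shRNA 2, at a log2 fold change against vector of 0.48 (SE 0.09, adjusted p = 0.0044). INSIG1 read 89.5 and 91.8 CPM in vector, 136 and 129 under scramble, 127 and 123 under shRNA 1, and 128 and 125 under shRNA 2, at 0.47 (SE 0.08, adjusted p = 0.0014). IDI1, the isomerase that supplies both isoprenoid building blocks, read 24.6 and 25.4 CPM in vector, 36.2 and 40.6 under scramble, 36.5 and 29.9 under shRNA 1, and 31.1 and 29.2 under shRNA 2, at 0.34 (SE 0.11, adjusted p = 0.045). For all 3 genes scramble and both hairpins lay above vector in every library. IDI1 lost the call in 11 of 18 alternatives, DESeq2 among them. Against scramble their values were -0.20 (SE 0.09) for MSMO1, -0.08 (SE 0.08) for INSIG1 and -0.28 (SE 0.10) for IDI1, none of them called.

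PMVK and FADS2 were called lower against vector alone. PMVK read 11.5 and 14.6 CPM in vector, 8.17 and 6.59 under scramble, 9.62 and 10.6 under shRNA 1, and 8.02 and 7.16 under shRNA 2, at -0.58 (SE 0.18, adjusted p = 0.048). FADS2, the delta-6 desaturase of polyunsaturated fatty acids, read 31.4 and 29.5 CPM in vector, 23.4 and 24.5 under scramble, 23.3 and 27.1 under shRNA 1, and 17.6 and 20.9 under shRNA 2, at -0.47 (SE 0.10, adjusted p = 0.0080). Both genes also read lower in both scramble libraries than in either vector library, and the call of PMVK was lost in 12 of 18 alternatives. The medians against vector were -0.06 over the sterol genes and -0.20 over the fatty acid genes.

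**Figure D2:**
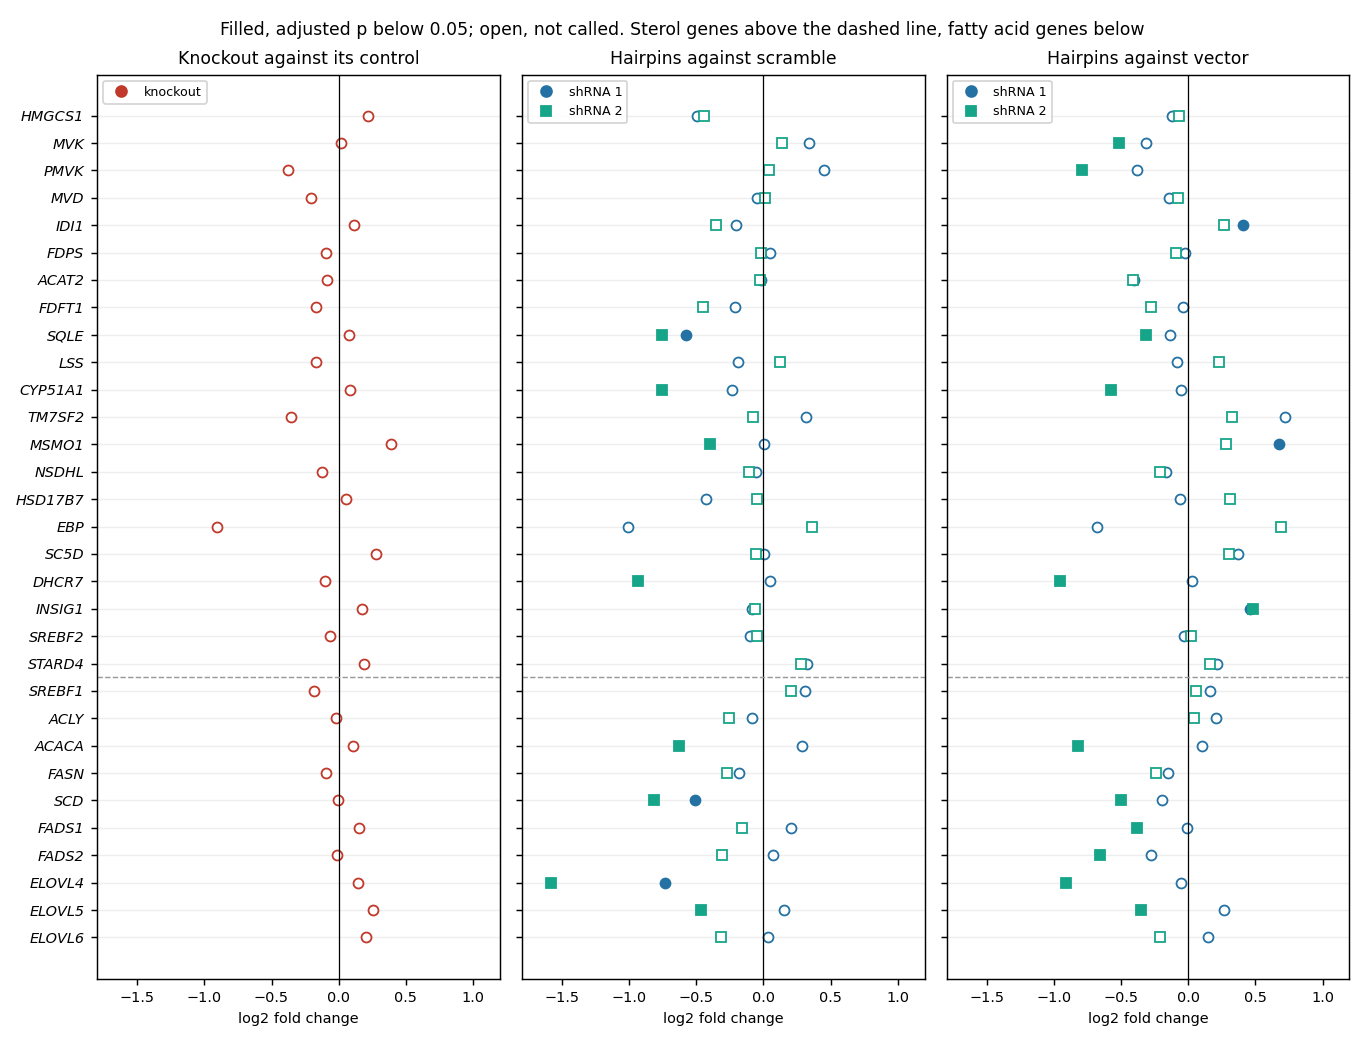
Log2 fold change (horizontal axis) of each of the 31 members for the knockout against its control, each hairpin against scramble and each hairpin against vector. Filled symbols passed an adjusted p below 0.05 and open ones did not; the dashed line separates the 21 sterol genes from the 10 fatty acid genes. The knockout panel has no filled symbol, and shRNA 2 has 8 against scramble and 12 against vector.

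The controls themselves differed in these genes. Scramble against vector called 9 members, 7 higher and 2 lower in scramble, where 15.3% of all genes were called (7.10% higher, 8.16% lower). IDI1 at 0.62 (SE 0.12), MSMO1 at 0.68 (SE 0.11), INSIG1 at 0.55 (SE 0.09) and SQLE at 0.44 (SE 0.08) were the sterol genes higher in scramble. ACLY, which makes cytosolic acetyl-CoA, at 0.30 (SE 0.07), SCD at 0.32 (SE 0.09) and ELOVL4 at 0.68 (SE 0.18) were the fatty acid genes, of which SCD lost the call in 10 of 18 alternatives. MVK at -0.66 (SE 0.17) and PMVK at -0.83 (SE 0.22), consecutive kinases of the mevalonate route, were lower. Scramble was thus the control with the higher SQLE, SCD and ELOVL4, and the size of the hairpin effect on these genes depended on which control was used. Which control is nearer to untreated cells was not tested.

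By hairpin, 3 of the 31 members (9.68%) were called with shRNA 1 against either control. These counts lay near or below the shares of all genes given here, and are a description. Against scramble SQLE was lower at -0.58 (SE 0.08, adjusted p = 0.0012), SCD at -0.51 (SE 0.09, adjusted p = 0.0051) and ELOVL4 at -0.73 (SE 0.19, adjusted p = 0.036), and none was higher, where 9.41% of all genes were called (5.01% lower, 4.40% higher). ELOVL4 lost this call in 10 of 18 alternatives, DESeq2 among them, and SCD in 4. Against vector none was lower, and IDI1 at 0.41 (SE 0.12), MSMO1 at 0.68 (SE 0.11) and INSIG1 at 0.46 (SE 0.09) were higher, where 13.0% of all genes were called (5.78% higher, 7.26% lower). IDI1 lost that call in 11 of 18 alternatives. The medians stayed near 0: -0.06 over the sterol genes and 0.05 over the fatty acid genes against scramble, and -0.05 and 0.04 against vector.

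With shRNA 2 more members were low, and most fatty acid genes were below 0. Against scramble 8 members were called lower and none higher, where 7.74% of all genes were called (4.15% lower, 3.58% higher): 4 of 21 sterol genes and 4 of 10 fatty acid genes. Against vector 11 were lower and INSIG1 was higher, where 21.0% of all genes were called (11.7% lower, 9.21% higher): 5 of 21 sterol genes and 6 of 10 fatty acid genes were lower. The median over the fatty acid genes was -0.32 against scramble and -0.37 against vector, and over the sterol genes -0.06 and -0.07. Against scramble 9 of the 10 fatty acid genes were below 0, the exception being SREBF1 at 0.20 (SE 0.16). So were 15 of the 21 sterol genes and 6744 of all 13365 genes.

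Of the members low with shRNA 2, DHCR7 fell by 0.94 against scramble (SE 0.11, adjusted p = 4.6e-04) and by 0.96 against vector (SE 0.11, adjusted p = 7.8e-05) on the log2 scale. CYP51A1 fell by 0.75 (SE 0.10) and 0.58 (SE 0.10), and SQLE by 0.76 (SE 0.08) and 0.31 (SE 0.08). SCD fell by 0.81 (SE 0.09) and 0.50 (SE 0.09), and ELOVL4 by 1.58 (SE 0.20) and 0.91 (SE 0.21). ACACA, the carboxylase that commits acetyl-CoA to fatty acids, read 25.3 and 25.9 CPM with shRNA 2, against 38.0 and 41.2 in scramble, 43.1 and 47.2 in vector, and 49.1 and 47.9 with shRNA 1. It fell by 0.63 against scramble (SE 0.16, adjusted p = 0.035) and by 0.82 against vector (SE 0.16, adjusted p = 0.0035). ELOVL5 read 154 and 148 CPM with shRNA 2, against 207 and 211 in scramble, 195 and 190.3 in vector, and 237 and 228 with shRNA 1. It fell by 0.46 (SE 0.10) and 0.35 (SE 0.10). MSMO1 fell by 0.40 against scramble (SE 0.11), and against vector MVK fell by 0.52 (SE 0.17), PMVK by 0.79 (SE 0.22), FADS1 by 0.38 (SE 0.10) and FADS2 by 0.66 (SE 0.12). Against scramble ACACA lost its call in 9 of 18 alternatives and MSMO1 in 11, and against vector MVK lost its call in 11.

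The hairpins were also compared with each other, a test that needs neither control. All 8 members called were higher with shRNA 1, where 14.3% of all genes were called (7.07% higher, 7.21% lower): CYP51A1, MSMO1 and DHCR7 of the 21 sterol genes, and ACACA, SCD, FADS1, ELOVL4 and ELOVL5 of the 10 fatty acid genes. DHCR7 differed by 0.98 (SE 0.11, adjusted p = 2.1e-04), ACACA by 0.92 (SE 0.16, adjusted p = 0.0033), ELOVL4 by 0.85 (SE 0.22, adjusted p = 0.027) and ELOVL5 by 0.62 (SE 0.10, adjusted p = 0.0018). CYP51A1 differed by 0.52 (SE 0.10), MSMO1 by 0.40 (SE 0.11), FADS1 by 0.37 (SE 0.10) and SCD by 0.30 (SE 0.09, adjusted p = 0.049). Above 0 were all 10 fatty acid genes, 14 of the 21 sterol genes and 6861 of all 13365 genes. The medians were 0.36 over the fatty acid genes and 0.06 over the sterol genes, against 0.01 over all genes. The difference between the 2 medians, sterol minus fatty acid, was -0.30, and -0.27 with the enzymes alone. SQLE, called lower with either hairpin against scramble, differed by 0.18 (SE 0.08, adjusted p = 0.17) between them. SCD kept its call in 4 of 18 alternatives, while DHCR7, ACACA and ELOVL5 were called in all 18.

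**Figure D3:**
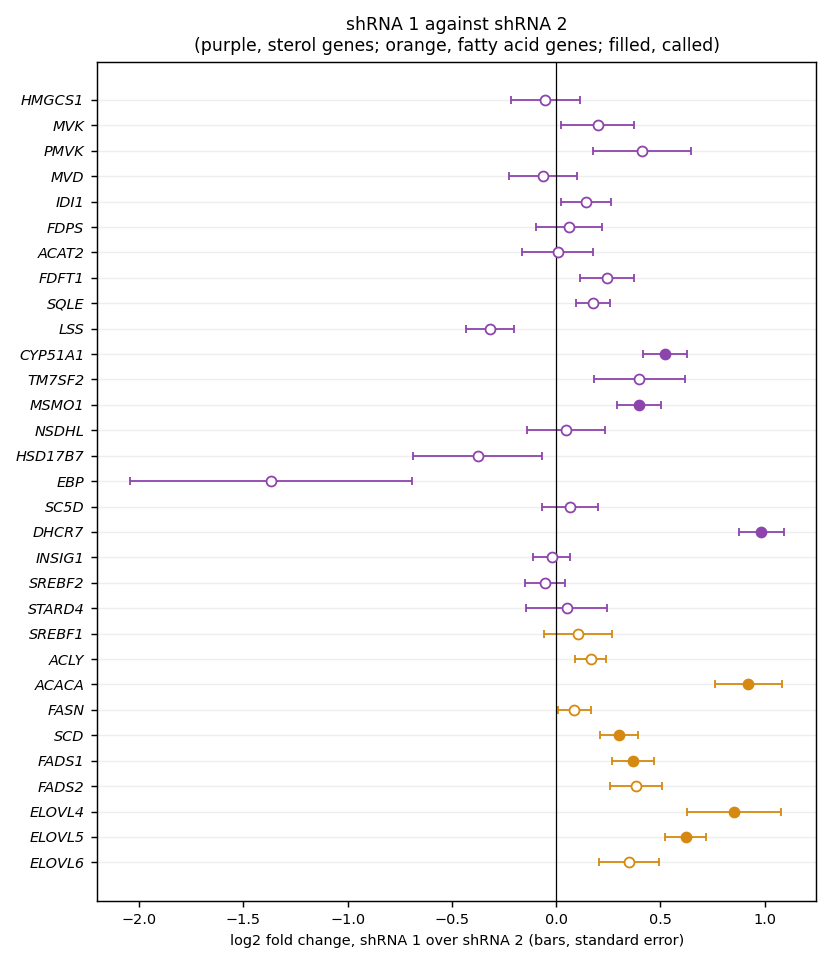
Log2 fold change of shRNA 1 over shRNA 2 for each member (point) with its standard error (bar); purple marks sterol genes, orange fatty acid genes, and filled points passed an adjusted p below 0.05. All 10 fatty acid genes lie to the right of 0, and DHCR7 at 0.98 is the highest of the sterol genes.

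No member was called in the same direction with both hairpins against both controls, where 31 genes were higher and 39 lower in that way (0.232% and 0.292% of those tested). SQLE, SCD and ELOVL4 came nearest and were called lower in 3 of these 4 comparisons, each missing with shRNA 1 against vector, and the call of ELOVL4 with shRNA 1 against scramble was lost in 10 of 18 alternatives. There the values were -0.14 (SE 0.08) for SQLE, -0.20 (SE 0.09) for SCD and -0.06 (SE 0.20) for ELOVL4. Without regard to the test, 9 members were below 0 in all 4 comparisons. They were HMGCS1, ACAT2, FDFT1, SQLE, CYP51A1 and NSDHL of the sterol genes, and FASN, SCD and ELOVL4 of the fatty acid genes. STARD4 and SREBF1 were above 0 in all 4. The comparisons share libraries, so these counts are a description. The shares of all genes called in 3 of the 4, or with 1 sign in all 4, were not computed. The member counts for these therefore have no background to be read against.

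The effects of knockout and knockdown were compared by subtracting the mean knockdown effect against scramble from the knockout effect. The SE of this difference comes from the joint fit, with a coefficient of variation of 9.55%. It may be too small for the knockout arm, which stood at 15.9% by itself against 3.08% in the knockdown arm. This difference was called in 3 members, where 1.10% of all genes were called (0.643% higher, 0.456% lower): SQLE at 0.74 (SE 0.10), SCD at 0.66 (SE 0.12) and ELOVL4 at 1.30 (SE 0.27), each with the knockout effect above the knockdown effect. SQLE lost the call without either scramble library (adjusted p = 0.074 and 0.067), and SCD and ELOVL4 lost it without any 1 library other than a knockout control. With vector in place of scramble, a choice made after seeing the data, the differences were 0.30, 0.34 and 0.63, and none of the 3 was called. The median of the difference was 0.01 over the sterol genes and 0.22 over the fatty acid genes. Above 0 were 9 of the 10 fatty acid genes, all but SREBF1, and 6549 of all 13365 genes.

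**Figure D4:**
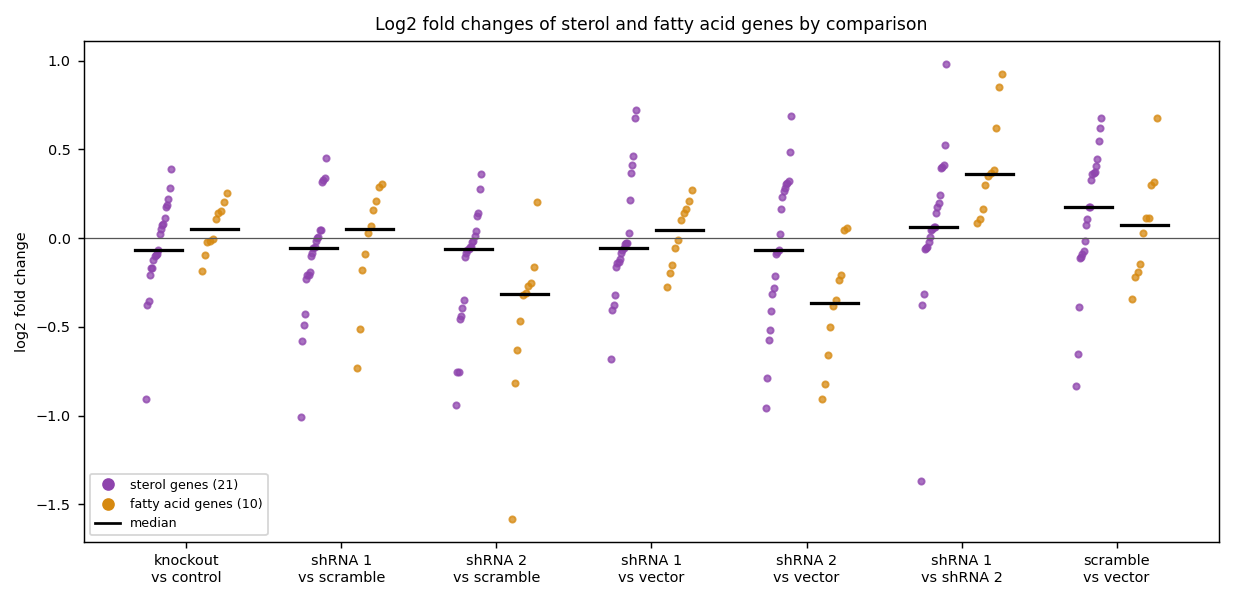
Log2 fold changes of the members in each comparison, with sterol genes (21, purple) and fatty acid genes (10, orange) side by side and black lines at the medians. The fatty acid medians stand at -0.32 and -0.37 in the shRNA 2 comparisons while the sterol medians lie between -0.07 and 0.17 in the 7 comparisons plotted.

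Of the regulators, INSIG1 alone was called. SREBF2 read 195 to 216 CPM over the 8 knockdown-arm libraries and was called in no comparison. SREBF1 read 33.8 to 50.3 CPM there and was called in none either. INSIG1, itself a target of SREBP-2, was called in comparisons with vector alone, as given above, and STARD4 in no comparison. Over all 10 comparisons, 16 members were never called, a description only, since the share of all genes never called was not computed. LSS, NSDHL, TM7SF2, HSD17B7, EBP and SC5D were among them on the sterol side, together with HMGCS1, MVD, FDPS, ACAT2 and FDFT1 of the earlier steps. FASN, the most abundant fatty acid gene by CPM, and ELOVL6 were those on the fatty acid side besides SREBF1.

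The members did not vary as 1 block across the 12 libraries. The mean standardised level of the sterol genes and that of the fatty acid genes had a Pearson r of 0.676, given as a description since groups and arms set most of the spread. FDFT1 (r = 0.894) and IDI1 (r = 0.869) followed the mean of the other sterol genes most closely, and SREBF2 (r = -0.789), TM7SF2 (r = -0.772) and MVD (r = -0.650) ran against it. ACACA (r = 0.862) and FADS1 (r = 0.718) followed the other fatty acid genes most closely, and SREBF1 (r = -0.065) did not follow them. Some members followed the other group more than their own: DHCR7 (r = 0.935 with the fatty acid mean, 0.760 with its own) and CYP51A1 (0.823 and 0.246), and in the other direction ACLY (0.938 with the sterol mean, 0.502 with its own) and ELOVL6 (0.865 and 0.535). The non-member genes most like the sterol mean were SBDS (r = 0.970), TRIAP1 (0.965), ALDH1B1 (0.962), FERMT3 (0.958) and CD93 (0.956). Those most like the fatty acid mean were WSB2 (r = 0.968), COPS8 (0.962), EXTL3 (0.957), SLC18B1 (0.957) and CDV3 (0.956), all over 12 libraries.

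Levels were also set side by side between the arms, where arm, doxycycline and construct cannot be told apart and shares near those of all genes are no result about the members. In 7 sterol genes (IDI1, FDPS, ACAT2, FDFT1, NSDHL, HSD17B7 and DHCR7) and 2 fatty acid genes (ACLY and ELOVL6) all 4 knockout-arm libraries lay above all 8 knockdown-arm libraries, 9 of the 31 members where 27.2% of all genes did so. TM7SF2 and SREBF2 lay below without overlap, 2 of 31 where 25.5% of all genes did. ACAT2 read 27.3 to 36.1 CPM in the knockout arm and 8.54 to 12.7 in the knockdown arm, HSD17B7 5.87 to 7.17 and 1.28 to 2.43. SREBF2 read 133 to 163 CPM in the knockout arm and 195 to 216 in the knockdown arm. The summed fibroblast markers moved the same way as SREBF2, at group means of 10871 and 11645 CPM in the knockout arm and 32102 to 36777 in the knockdown arm, and their part in these levels was not tested.

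Because the strand setting of the counting is not given in the sources used here, members that overlap genes on the opposite strand may hold some of their reads. In GENCODE 29, ACAT2 shares 1458 exon bases (45.8% of its merged exons) with SOD2-OT1 and 397 with TCP1, FDPS shares 476 (28.9%) with RUSC1-AS1, and HMGCS1 shares 703 (19.9%) with an antisense gene. FADS1 and FADS2 share 142 bases. HSD17B7 has near-identical pseudogene copies, and its values are uncertain for that reason.

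Genes around the pathway were taken from 6 lists. The counts below are for the mean knockdown and stand beside the 3.11% of all genes called higher and 3.66% lower against scramble, and 8.04% and 10.4% against vector. Of 12 genes of SREBP control and sterol sensing, 1 was called higher and 1 lower against scramble, and 3 lower against vector. All 12 genes of this list were above 0 in shRNA 1 against shRNA 2, as were 6861 of all 13365 genes. The list median was 0.24, and 5 of its genes were called higher, where 7.07% of all genes were. Of 14 tested genes of sterol uptake, storage and trafficking, 2 were called lower: OSBP, an oxysterol-binding transfer protein, at -0.40 (SE 0.06, adjusted p = 0.0041) and LIPA, the lysosomal acid lipase, at -0.48 (SE 0.09, adjusted p = 0.011). Against vector they stood at -0.18 (SE 0.06) and -0.05 (SE 0.10), neither called, and GRAMD1A, a sterol carrier between membranes, was called higher at 0.34 (SE 0.08, adjusted p = 0.016). These means do not stand for each hairpin. Between shRNA 1 and shRNA 2, LIPA differed by 0.98 (SE 0.11), OSBP by -0.28 (SE 0.08) and GRAMD1A by -0.40 (SE 0.10), each called. With shRNA 1 alone against vector, LIPA was called higher at 0.44 (SE 0.11) and OSBP lower at -0.32 (SE 0.08). GRAMD1A was not called there.

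Of 7 tested LXR targets and efflux genes, ABCA1, the cholesterol exporter, was called higher against scramble at 0.79 (SE 0.18, adjusted p = 0.025), and stood at 0.50 (SE 0.18, adjusted p = 0.073) against vector. Of 22 tested genes of other fatty acid synthesis and activation, the acyl-CoA synthetases ACSL3 at -0.63 (SE 0.10, adjusted p = 0.0033) and ACSL4 at -0.55 (SE 0.14, adjusted p = 0.044) were called lower. ACSL3 was also lower against vector at -0.51 (SE 0.10, adjusted p = 0.0039), and ACSL4 at -0.19 (SE 0.15) was not called there. With shRNA 1 alone against vector, ACSL4 was called lower at -0.66 (SE 0.17, adjusted p = 0.028), so its mean does not stand for each hairpin. In the mean against vector 4 genes of this list were called higher, named here after their values were seen: ACSL1 at 0.82 (SE 0.10), ACSL5 at 0.48 (SE 0.10), ELOVL7 at 0.65 (SE 0.18) and GPAM at 0.97 (SE 0.13). With shRNA 1 alone they stood at 0.44 (SE 0.12), 0.47 (SE 0.12), 0.32 (SE 0.21) and 0.95 (SE 0.14), and ELOVL7 was not called. None of 10 isoprenoid side branch genes and none of 18 fatty acid oxidation genes was called against scramble, and against vector 1 and 0 were, the former lower. The list medians against scramble lay between -0.10 and -0.01, near the 0.00 over all genes. In the knockout none of the genes of the 6 lists was called.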

How the data were processed

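RNA of 12 LMSU libraries was sequenced. The authors deposited unnormalised read counts, as whole numbers for each gene symbol and library. Per the submitters' processing notes, bcl2fastq, STAR 2.5 and the hg19 build were used; how reads were assigned to genes, with or without strand, and by which annotation is not given in the sources used here. The members, lists and tests were chosen with earlier results of these data known. In R 4.3.3, edgeR 4.0.16 fitted all 12 libraries as 6 groups (filterByExpr, minimum count 10; TMM; residual degrees of freedom 6), and contrasts were given a two-sided quasi-likelihood F test, with p-values adjusted by Benjamini-Hochberg over 13365 genes. SE is the absolute log2 fold change divided by the square root of F. Alternatives were DESeq2 1.42.0, RLE size factors, no filter, at least 1 CPM in every library, libraries of 1 arm alone, a replicate block, other controls, thinned counts, and each library left out. Groups came from sample titles, whose replicate numbers are not stated to pair libraries.

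All members are accounted for, and values in every library are given for those called in the mean knockdown or the knockout. From each list, up to 4 genes with the smallest adjusted p were named if called. Of 96 list genes, 3 were matched through an older symbol. The targeted gene and some list genes are not reported here. The model was tried on simulated counts for the mean knockdown against scramble. It recovered 40 of 66 genes changed 1.5-fold, 56 of 67 changed 2-fold and 62 of 64 changed 4-fold, with 2 false calls. The simulation gave all groups the same spread, unlike the arms here. Figures were drawn with matplotlib 3.10.9, and exon lengths came from GENCODE 29 (GRCh38), which is not the build of the counts.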

Additional observations from a re-analysis of the deposited data

Results flagged for a closer look

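The knockout effect minus the mean knockdown effect against scramble was positive past an adjusted p of 0.05 in 3 members, where 1.10% of all genes passed (edgeR quasi-likelihood test, Benjamini-Hochberg over 13365 genes). The difference was 0.74 for SQLE (adjusted p = 0.0078), 0.66 for SCD (adjusted p = 0.029) and 1.30 for ELOVL4 (adjusted p = 0.044) on the log2 scale. In each, the hairpins lowered the gene against scramble while the knockout value was 0.08, 0.00 and 0.14. With vector in place of scramble, an alternative chosen after seeing the data, the differences were 0.30 (adjusted p = 0.14), 0.34 (0.14) and 0.63 (0.24), and no member was called. The arms also differ in doxycycline, which cannot be told apart from the kind of construct. They differ in spread as well (15.9% and 3.08%), while these adjusted p-values rest on 1 joint spread of 9.55%.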

How the results depend on the processing

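Of 60 calls of a member in a comparison, taken over 1093 alternatives, 866 kept direction and call, 227 kept the direction without the call, and 0 reversed. The cause of the changes below was not tested, except that fits of the knockdown arm alone rest on a smaller spread. There the members called were 15 for the mean knockdown against scramble, 19 against vector, 15 and 14 for shRNA 1 against scramble and vector, 16 and 19 for shRNA 2, 16 between the hairpins and 17 between the controls, where 29.8%, 45.2%, 33.2%, 40.7%, 31.5%, 46.7%, 38.8% and 42.1% of all genes were called, in this order. The sterol minus fatty acid median of shRNA 1 against vector was then -0.10. For the knockout minus knockdown difference, DESeq2 called 5 members, no filter 6, the replicate block 1, vector as control 0 (median difference -0.36) and the mean of both controls 1, where 1.75%, 2.61%, 0.449%, 5.35% and 1.504% of all genes were called. With enzymes alone the sterol minus fatty acid median was -0.20 in the knockout, 0.10 in the mean knockdown against vector and -0.062 in shRNA 1 against vector. At 1 CPM in every library it was -0.076 in the knockout, -0.089 in shRNA 1 against vector and -0.13 in the knockout minus knockdown difference.

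Leaving out 1 library at a time, members called ranged from 0 to 12 in the knockout (highest without knockout control replicate 2) and from 2 to 12 in the mean knockdown against scramble (lowest without scramble replicate 2, highest without knockout control replicate 2). They ranged from 2 to 17 in the mean knockdown against vector (lowest without vector replicate 1), from 1 to 6 and 5 to 13 for shRNA 1 and shRNA 2 against scramble (lowest without scramble replicate 1), and from 1 to 9 and 6 to 18 against vector (lowest without shRNA 1 replicate 1 and shRNA 2 replicate 2). They ranged from 3 to 13 between the hairpins (lowest without shRNA 1 replicate 1), from 3 to 14 between the controls (lowest without scramble replicate 2) and from 0 to 14 for the knockout minus knockdown difference (lowest without scramble replicate 1, highest without knockout control replicate 2). The other highest counts came without knockout control replicate 1. The share of all genes called moved with these counts, in the same order from 0.00730% to 30.3%, 0.982% to 17.9%, 6.65% to 33.8%, 2.48% to 21.2%, 1.72% to 19.3%, 3.63% to 28.0%, 10.3% to 35.3%, 4.998% to 27.5%, 6.44% to 29.8% and 0.183% to 24.5%. The sterol minus fatty acid median ranged from -0.26 to 0.072 in the knockout, 0.083 to 0.19 in the mean knockdown against vector, -0.16 to -0.10 in shRNA 1 against scramble, -0.10 to -0.047 in shRNA 1 against vector, 0.24 to 0.40 in shRNA 2 against vector, -0.34 to -0.21 between the hairpins, 0.0017 to 0.16 between the controls and -0.35 to 0.014 in the knockout minus knockdown difference.

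Replicate numbers are not stated to pair libraries, and the correlation of replicate differences between groups ran from -0.47 (knockout control with knockout) to 0.16. With the replicate block, 5 members were called in the mean knockdown against scramble, 6 against vector and 0 in the knockout, and 0 in the knockout with the pairing crossed.

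Depth limits EBP, with 2 to 17 counts a library, and HSD17B7.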
